A study of Homo sapiens with 18 samples.

Results

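The UGT2B genes encode UDP-glucuronosyltransferases of the 2B subfamily, and 7 of them, UGT2B4, UGT2B7, UGT2B10, UGT2B11, UGT2B15, UGT2B17 and UGT2B28, were taken by gene symbol from a table of 37347 rows, 1 row for each. The cells were 16D, a prostate cancer line that grows despite castration levels of androgen, and were transduced with lentivirus for Cas9 and a guide RNA before RNA sequencing. The groups were sgOGDHL_1_Enza, sgOGDHL_2_Enza, sgAAVS_Enza, sgOGDHL_1_DMSO, sgOGDHL_2_DMSO and sgAAVS_DMSO, with 3 libraries in each and 18 in all. sgOGDHL_1 and sgOGDHL_2 are 2 guides against OGDHL, a relative of the mitochondrial 2-oxoglutarate dehydrogenase, and sgAAVS is the control guide, aimed at a safe-harbour site. Enza stands for 6 weeks in 10 µM enzalutamide, an antiandrogen, and DMSO for 6 weeks in its vehicle. All cells carried Cas9 and a guide and grew in medium with serum, which itself holds steroids, and whether a group was 1 clone or a pool of cells is not given in the sources used here.

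Glucuronosyltransferases sit in the membrane of the endoplasmic reticulum and move glucuronic acid from UDP-glucuronic acid onto small molecules, which makes them soluble and ready for export. In prostate cells UGT2B15 and UGT2B17 glucuronidate dihydrotestosterone and its metabolites, and so end their action as androgens. Both are known as genes that androgen holds down in androgen-dependent prostate cancer lines, where androgen deprivation raises them. UGT2B28 also takes steroids, UGT2B7 takes morphine and other drugs, UGT2B4 takes bile acids, UGT2B10 attaches glucuronic acid to the nitrogen of nicotine and tertiary amines, and the substrates of UGT2B11 are less well known.

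The 7 genes are near-identical copies, and the sequences below are shown because that likeness decides how well reads can tell them apart. Over the coding sequence (GENCODE release 29, GRCh38), UGT2B10, UGT2B11 and UGT2B28 shared 94.3% to 97.0% of bases with each other, and UGT2B15 and UGT2B17 shared 96.5%. Between these groups identity was 84.6% to 86.5%. UGT2B4 and UGT2B7 shared 90.5% with each other. The first 60 coding bases of the 5 genes that were expressed at 1 TPM or more are given from 5′ to 3′, aligned to UGT2B11, with bases that differ from UGT2B11 in capitals. UGT2B10 lacks 3 bases of this stretch.
UGT2B11: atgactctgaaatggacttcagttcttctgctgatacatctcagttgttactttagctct
UGT2B28: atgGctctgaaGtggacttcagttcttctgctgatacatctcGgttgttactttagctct
UGT2B10: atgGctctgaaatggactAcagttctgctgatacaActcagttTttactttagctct
UGT2B15: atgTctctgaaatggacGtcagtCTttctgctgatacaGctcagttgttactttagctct
UGT2B17: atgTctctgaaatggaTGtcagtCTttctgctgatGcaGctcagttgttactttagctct

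Cut into stretches of 50 bases, the transcript of UGT2B11 had 40.9% of its stretches in a transcript of another gene, UGT2B28 35.7%, UGT2B10 31.7%, UGT2B15 and UGT2B17 27.8% each, UGT2B7 6.75% and UGT2B4 3.16%. For UGT2B15 and UGT2B17 nearly all of it was shared between the 2 genes, 27.5% of stretches. For UGT2B11 the most shared partner was the pseudogene UGT2B25P, with 22.4%. The level of a single member is therefore uncertain to the extent that the submitters' counting split such reads. For this reason the sum of the 7 members is given beside the single genes. The sum leaves out the pseudogenes, and only 24.8% of the stretches of UGT2B11 lay in another member. The table holds 5413 positive values under 1e-10 TPM, which whole reads cannot give.

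The members lie in 1 cluster on the long arm of chromosome 4 (GRCh38). UGT2B17 spans chr4:68537184-68568527 (minus strand) and UGT2B15 chr4:68646630-68670628 (minus strand), followed by UGT2B10 at chr4:68815993-68831196 (plus strand). UGT2B7 spans chr4:69051363-69112987 (plus strand), UGT2B11 chr4:69199951-69214731 (minus strand), UGT2B28 chr4:69280499-69295050 (plus strand) and UGT2B4 chr4:69480165-69526014 (minus strand). 5 UGT2B pseudogenes stand between and beside them.

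Values are TPM (transcripts per 1e6 transcripts), which divide reads by transcript length, so that levels of different members can be set side by side; the depth behind them is unknown. The labels do not give the cultures from which the 3 libraries of a group came, and the p-values speak only of how these libraries differ, which may be technical. Changes are differences of log2(TPM + 1), a scale that makes the change of a low gene look smaller. They were tested with limma across the 13416 genes that reached 1 TPM in 3 or more libraries, with Benjamini-Hochberg adjustment, and called at an adjusted p under 0.05. Fewer expressing cells and less RNA per cell cannot be told apart in such bulk samples.

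OGDHL, the targeted gene, had 1.03 ± 0.104 TPM in sgOGDHL_1_Enza and 1.74 ± 0.0908 TPM in sgOGDHL_2_Enza, against 3.37 ± 0.363 TPM in sgAAVS_Enza (mean ± SD, n = 3 each, as throughout). In DMSO it had 0.849 ± 0.445 TPM in sgOGDHL_1 and 3.03 ± 0.364 TPM in libraries labelled sgOGDHL_2, against 2.15 ± 0.0357 TPM in sgAAVS. OGDHL RNA was thus not lower in these sgOGDHL_2 libraries. Editing of the gene was not measured here, and an RNA level alone does not show it. The DMSO libraries labelled sgOGDHL_2 also stood apart from the others. Their correlations over tested genes were 0.884 to 0.922 with libraries of other groups, against 0.950 to 0.998 among the rest. Mitochondrial genes held 57.2% to 73.8% of TPM in sgOGDHL_1_DMSO, 53.6% to 55.4% in sgAAVS_DMSO and 50.3% to 60.2% in sgAAVS_Enza. The lowest share of any library was 50.1%, in a DMSO library labelled sgOGDHL_2. All 6 prostate luminal markers were expressed at 1 TPM or more in every group, while basal, leukocyte and endothelial markers summed to at most 1.49 TPM and hepatocyte markers, for the organ richest in UGT2B, to at most 3.90 TPM. For each of these 4 lists that highest sum was in a library labelled sgOGDHL_2 in DMSO. Of the 5 fibroblast markers, 1 or 2 reached 1 TPM in any group. Their sum was 3.74 to 8.70 TPM, also highest in a library labelled sgOGDHL_2 in DMSO.

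In vehicle the family was abundant and led by UGT2B11. In sgAAVS_DMSO libraries UGT2B11 stood at 200.1 ± 1.28 TPM, UGT2B28 at 44.4 ± 1.30, UGT2B15 at 43.7 ± 1.67, UGT2B17 at 17.0 ± 0.360 and UGT2B10 at 14.4 ± 0.322 TPM, and UGT2B4 and UGT2B7 were under 1 TPM. The libraries of UGT2B28 and UGT2B15 overlapped in this order, and those of the other neighbours did not. In sgAAVS_Enza the order was another one, with UGT2B15 highest at 5.59 ± 0.762 TPM, then UGT2B17 at 2.85 ± 0.507 and UGT2B11 at 2.07 ± 0.641 TPM, whose libraries overlapped. UGT2B10 and UGT2B28 were at 0.289 ± 0.0453 and 0.273 ± 0.0778 TPM, with overlapping libraries.

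**Figure D1:**
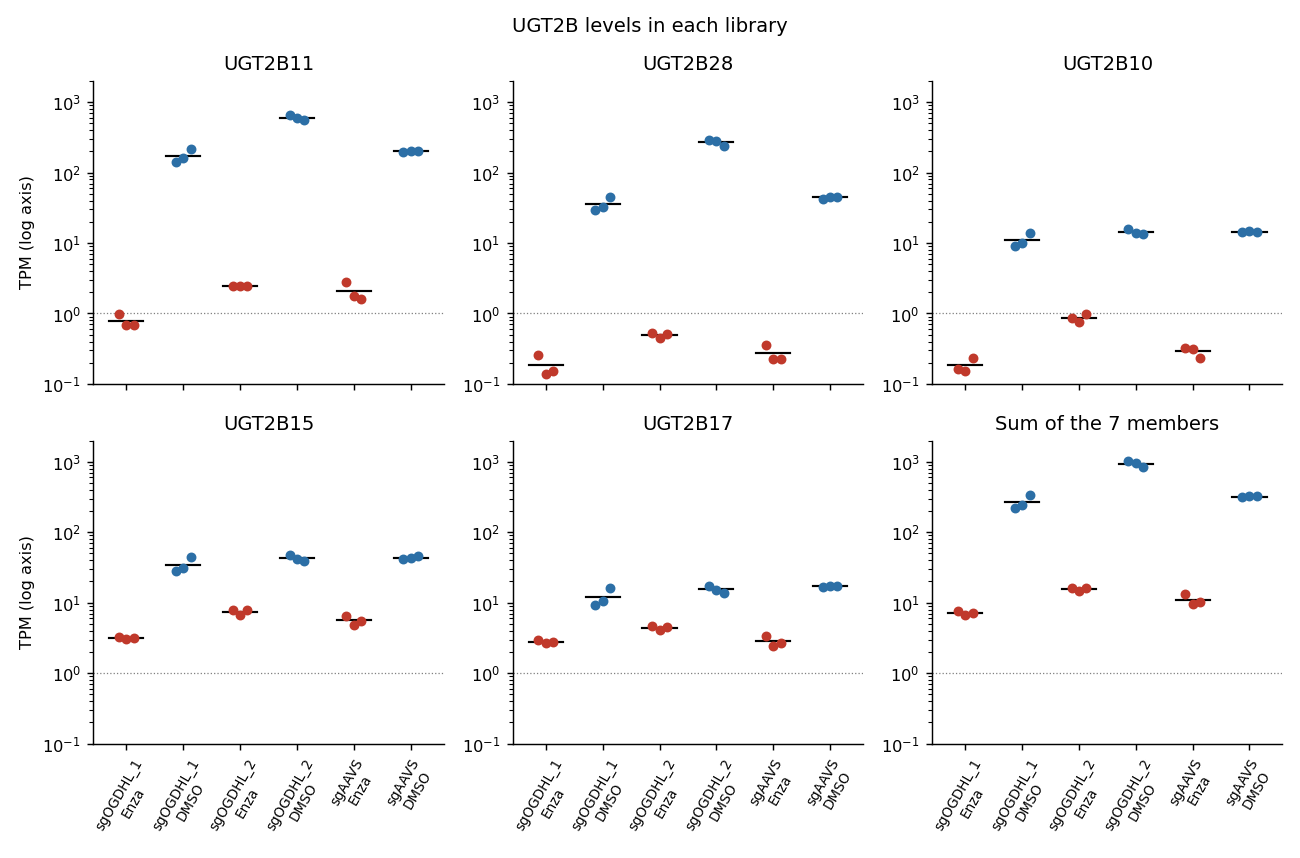
TPM (log axis) of 5 UGT2B members and of the sum of the 7 members in each library of the 6 groups; points are libraries, black lines are means of 3, red is enzalutamide, blue is DMSO, and the dotted line marks 1 TPM. In every panel all enzalutamide libraries lie below all DMSO libraries, and UGT2B11 and UGT2B28 are highest in DMSO libraries labelled sgOGDHL_2.

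Enzalutamide against vehicle in sgAAVS cells asks how the antiandrogen acts on the control line. The 5 members that could be tested all fell, by 5.98-fold for UGT2B17 and 163-fold for UGT2B28 as ratios of mean TPM, with the other members between. The ratios were larger for UGT2B10, UGT2B11 and UGT2B28 than for the androgen-inactivating pair UGT2B15 and UGT2B17. By limma, 11.6% of all tested genes were called lower in this comparison, and in 27.4% all enzalutamide libraries lay below all vehicle libraries. Of the 5, 2 (UGT2B10 and UGT2B28) reached 1 TPM in DMSO libraries only and so passed the filter through the vehicle groups.

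UGT2B15, a main androgen-inactivating enzyme of the prostate, had 6.38, 4.86 and 5.52 TPM in the 3 sgAAVS_Enza libraries and 42.0, 43.7 and 45.3 TPM in the 3 sgAAVS_DMSO libraries. All enzalutamide libraries were below all vehicle libraries, and the log2 change was -2.77 (SE 0.14, limma adjusted p = 6.7e-11). UGT2B17, its close copy, had 3.42, 2.44 and 2.69 TPM in sgAAVS_Enza and 16.6, 17.1 and 17.3 TPM in sgAAVS_DMSO. Its change was -2.24 (SE 0.15, limma adjusted p = 2.0e-09), again with no overlap. The pair together had 8.44 ± 1.26 TPM in sgAAVS_Enza and 60.7 ± 2.02 TPM in sgAAVS_DMSO, 7.19-fold lower.

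UGT2B11 had 2.80, 1.77 and 1.63 TPM in sgAAVS_Enza and 199, 202 and 199.9 TPM in sgAAVS_DMSO. This was the most abundant member in vehicle, and its libraries in vehicle were close to each other. The first enzalutamide library was above the other 2, and it had the lowest mitochondrial share of its group, 50.3% of TPM. The change was -6.05 (SE 0.15, limma adjusted p = 5.0e-15), a ratio of means of 96.8-fold lower. UGT2B28, a steroid-conjugating enzyme, had 0.363, 0.226 and 0.229 TPM in sgAAVS_Enza and 42.9, 45.1 and 45.2 TPM in sgAAVS_DMSO. Its change was -5.16 (SE 0.13, limma adjusted p = 5.0e-15). UGT2B10, the nicotine enzyme, had 0.321, 0.308 and 0.237 TPM in sgAAVS_Enza and 14.2, 14.7 and 14.2 TPM in sgAAVS_DMSO, with a change of -3.58 (SE 0.12, limma adjusted p = 1.4e-13) and a ratio of means of 49.8-fold lower. In each of these genes the 2 sets of libraries lay far apart. Summed, the 3 genes had 2.63 ± 0.750 TPM in sgAAVS_Enza and 259 ± 2.67 TPM in sgAAVS_DMSO, 98.4-fold lower.

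UGT2B4 and UGT2B7 were below 1 TPM in every library of the series and were outside the main test. UGT2B4, the bile acid enzyme, was listed at 0.00278, 0.00161 and 0 TPM in sgAAVS_Enza and at 0.186, 0.212 and 0.172 TPM in sgAAVS_DMSO. UGT2B7 had 0.00278, 0.00301 and 0.00144 TPM in sgAAVS_Enza and 0.101, 0.0805 and 0.0814 TPM in sgAAVS_DMSO. Both were lower in every enzalutamide library than in any vehicle library. With no filter on low values both were called lower by limma (UGT2B4 -0.25, adjusted p = 2.0e-08, and UGT2B7 -0.12, adjusted p = 3.6e-05), where 9.96% of 26900 genes were called lower.

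The same drug comparison was made with each OGDHL guide. In sgOGDHL_1 cells all 5 tested members fell, where 3.54% of genes were called lower and 5.21% had no overlap in this direction, and in sgOGDHL_2 cells all 5 fell, where 48.3% were called lower and 58% had no overlap, shares that rest on the vehicle libraries labelled sgOGDHL_2. UGT2B11 had 0.984, 0.686 and 0.688 TPM in sgOGDHL_1_Enza and 144, 160.4 and 216 TPM in sgOGDHL_1_DMSO, a change of -6.59 (SE 0.15, limma adjusted p = 6.7e-15). It had 2.45, 2.43 and 2.46 TPM in sgOGDHL_2_Enza and 661, 597 and 551 TPM in DMSO libraries labelled sgOGDHL_2, a change of -7.45 (SE 0.15, limma adjusted p = 1.8e-17). With both guides every vehicle library was far above every enzalutamide library.

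UGT2B28 had 0.256, 0.141 and 0.155 TPM in sgOGDHL_1_Enza and 29.3, 32.4 and 45.4 TPM in sgOGDHL_1_DMSO, a change of -4.93 (limma adjusted p = 3.4e-14). It had 0.520, 0.447 and 0.516 TPM in sgOGDHL_2_Enza and 291, 277 and 238 TPM in DMSO libraries labelled sgOGDHL_2, a change of -7.49 (limma adjusted p = 2.4e-18). For UGT2B10 the changes were -3.32 with sgOGDHL_1 and -3.04 with sgOGDHL_2, for UGT2B15 -3.08 and -2.38, and for UGT2B17 -1.74 and -1.61, all at limma adjusted p of 1.5e-07 or less. UGT2B17 had the smallest change of the 5 with every guide.

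The family sum had 7.58, 6.72 and 7.04 TPM in sgOGDHL_1_Enza and 219.5, 245 and 336 TPM in sgOGDHL_1_DMSO. It had 16.3, 14.4 and 16.3 TPM in sgOGDHL_2_Enza and 1034, 947 and 857 TPM in DMSO libraries labelled sgOGDHL_2, and 13.3, 9.62 and 10.3 TPM in sgAAVS_Enza and 315, 322 and 322 TPM in sgAAVS_DMSO. Enzalutamide libraries and vehicle libraries did not overlap in any guide. The sum was 37.5-fold lower in enzalutamide with sgOGDHL_1, 60.3-fold lower with sgOGDHL_2 and 28.9-fold lower with sgAAVS. These folds are described without a test, since the sum was given only to set aside how reads were split among the 7 members. It does not set aside how reads were split between members and pseudogenes.

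The make-up of the family differed between drug and vehicle with every guide. UGT2B15 and UGT2B17 together made up 83.7 ± 2.10% of the family sum in sgOGDHL_1_Enza, 75.6 ± 0.928% in sgOGDHL_2_Enza and 76.5 ± 2.98% in sgAAVS_Enza, against 17.4 ± 0.556% in sgOGDHL_1_DMSO, 6.20 ± 0.109% in DMSO libraries labelled sgOGDHL_2 and 19.0 ± 0.430% in sgAAVS_DMSO. UGT2B11 made up 11.0 ± 1.74%, 15.6 ± 1.05% and 18.4 ± 2.63% in the enzalutamide groups in the same order of guides, against 65.1 ± 0.693%, 63.8 ± 0.621% and 62.6 ± 0.568% in the vehicle groups. A share does not move with the TPM of genes outside the family, except through the split of reads shared with pseudogenes. In the 3 sgOGDHL_1_DMSO libraries, whose family sums were 219.5 to 336 TPM, shares were 65.6, 65.4 and 64.3% for UGT2B11. Within the pair, UGT2B15 was 1.12 ± 0.0123 times UGT2B17 in sgOGDHL_1_Enza, 1.68 ± 0.0408 times in sgOGDHL_2_Enza and 1.97 ± 0.0949 times in sgAAVS_Enza, against 2.91, 2.77 and 2.56 times in the vehicle groups in the same order. The ratio was lowest in sgOGDHL_1_Enza, where the 2 genes were nearly level.

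**Figure D2:**
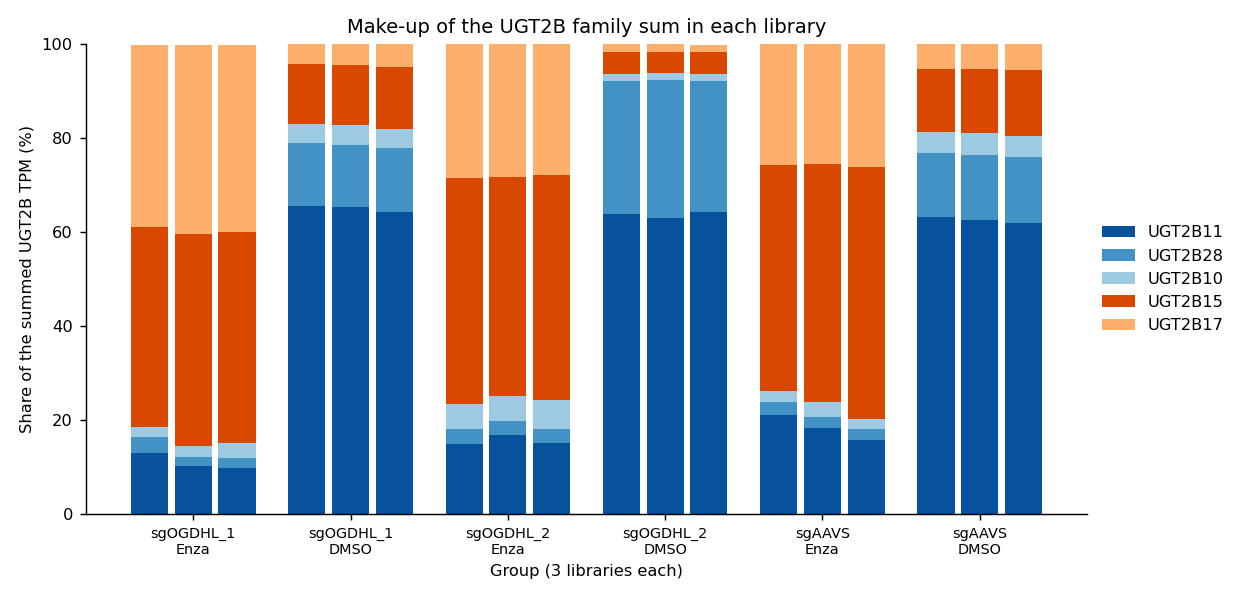
Share of the summed UGT2B TPM (percent) held by each of 5 members in each of the 18 libraries; every bar is a library, and UGT2B4 and UGT2B7 are too low to be drawn. UGT2B15 and UGT2B17 (orange) hold over 70% in every enzalutamide library and under 20% in every vehicle library, where UGT2B11 (dark blue) holds over 60%.

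RefSeq promoters (GRCh38.p14) were at hand for 4 members, and those of UGT2B10, UGT2B11 and UGT2B15 are shown because these genes fell together by different amounts. The 250 bases before each start are given on the gene's strand, for UGT2B10 chr4:68815744-68815993 (plus), for UGT2B11 chr4:69214749-69214998 (minus) and for UGT2B15 chr4:68670653-68670902 (minus). Capitals mark matches to the motifs searched.
UGT2B10: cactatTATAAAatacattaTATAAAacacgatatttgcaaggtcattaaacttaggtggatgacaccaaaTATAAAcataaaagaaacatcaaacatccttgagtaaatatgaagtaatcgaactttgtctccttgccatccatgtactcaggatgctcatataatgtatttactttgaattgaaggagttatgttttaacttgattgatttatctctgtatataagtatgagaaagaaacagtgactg
UGT2B11: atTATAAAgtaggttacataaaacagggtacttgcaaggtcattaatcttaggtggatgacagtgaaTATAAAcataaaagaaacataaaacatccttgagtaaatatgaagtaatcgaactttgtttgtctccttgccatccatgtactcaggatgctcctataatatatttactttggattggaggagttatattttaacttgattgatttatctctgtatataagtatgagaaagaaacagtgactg
UGT2B15: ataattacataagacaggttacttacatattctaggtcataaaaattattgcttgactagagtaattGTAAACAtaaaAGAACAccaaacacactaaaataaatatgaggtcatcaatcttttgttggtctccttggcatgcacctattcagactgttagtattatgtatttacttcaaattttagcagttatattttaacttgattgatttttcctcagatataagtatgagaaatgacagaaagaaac

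Both strands were searched for AGAACA (a half-site of steroid receptors), TGTTTAC and TGTTTGC (forkhead factors such as FOXA1) and TATAAA (the TATA box). UGT2B15 held AGAACA once, which 12.4% of 35116 promoters of that length held, and TGTTTAC once on the reverse strand, which 2.98% held; these matches lie close together and do not overlap. UGT2B10 held TATAAA 3 times and UGT2B11 held it 2 times, while 10.7% of promoters held it at all. The first match began at base -244 in UGT2B10 and -248 in UGT2B11, counted back from the end of the stretch. The stretch searched for UGT2B7, chr4:69096224-69096473 (plus), held none of the 4 motifs. It lies inside the span of the gene given above, and the bases before the first base of that span were not searched. TGTTTGC, in 3.23% of promoters, was in none of the 4. The promoters of UGT2B10 and UGT2B11 shared 93.1% of bases, and other pairs 68.0% to 77.4%. A match describes the letters only and shows no binding.

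Enzalutamide with sgOGDHL_1 against enzalutamide with sgAAVS asks whether the loss of OGDHL alters the family in treated cells. UGT2B11 and UGT2B15 were lower with sgOGDHL_1, where 4.91% of genes were called lower, while UGT2B10, UGT2B17 and UGT2B28 did not pass. UGT2B11 had 0.984, 0.686 and 0.688 TPM in sgOGDHL_1_Enza and 2.80, 1.77 and 1.63 TPM in sgAAVS_Enza, with no overlap and a change of -0.77 (SE 0.15, limma adjusted p = 0.0035). UGT2B15 had 3.24, 3.03 and 3.16 TPM in sgOGDHL_1_Enza and 6.38, 4.86 and 5.52 TPM in sgAAVS_Enza, with a change of -0.67 (SE 0.14, limma adjusted p = 0.0065). UGT2B17 had 2.93, 2.70 and 2.79 TPM in sgOGDHL_1_Enza and 3.42, 2.44 and 2.69 TPM in sgAAVS_Enza, with a change of -0.01 (limma adjusted p = 0.99) and overlapping libraries. UGT2B10 changed by -0.12 (limma adjusted p = 0.66) and UGT2B28 by -0.10 (limma adjusted p = 0.76), neither past the threshold. Both were under 1 TPM in these libraries, where log2(TPM + 1) makes changes look smaller. As ratios of mean TPM, UGT2B10 was 1.58-fold lower with no overlap, and UGT2B28 was 1.48-fold lower with overlapping libraries. The family sum was 7.11 ± 0.436 TPM in sgOGDHL_1_Enza and 11.1 ± 1.95 TPM in sgAAVS_Enza. With a pseudocount of 5 neither call held. With the replicate number as a block, UGT2B10 was called lower too, for 3 members, where 16.3% of genes were. That pairing rests on weak correlations of 0.25, 0.11 and 0.20 between same-numbered libraries.

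In the same comparison most genes that androgen switches on went the other way. KLK3, which encodes prostate-specific antigen, had 888, 843 and 772 TPM in sgOGDHL_1_Enza and 67.7, 53.5 and 54.5 TPM in sgAAVS_Enza, a change of 3.82 (SE 0.19, limma adjusted p = 2.1e-10). SLC45A3, which encodes prostein, had 24.7, 23.3 and 20.6 TPM in sgOGDHL_1_Enza and 3.18, 2.17 and 2.22 TPM in sgAAVS_Enza, a change of 2.77 (limma adjusted p = 8.7e-08). ACSL3, a fatty acid activating enzyme, rose by 0.56 (limma adjusted p = 0.0059), whereas the transcription factor MAF fell by 0.57 (limma adjusted p = 0.0015). Of 24 listed androgen-induced genes, 22 were tested, 16 rose and 1 fell, where 2.15% of all tested genes rose and 4.91% fell. Their median change was 0.69 against -0.06 over all tested genes. The second guide did not show this. With sgOGDHL_2 against sgAAVS in enzalutamide, 2 of the 22 rose and 0 fell, where 0.678% and 0.574% of all tested genes did. Their median there was 0.03 against -0.07. In sgOGDHL_2_Enza against sgOGDHL_1_Enza, 1 was called higher and 14 lower, where 6.3% and 6.65% of all tested genes were.

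**Figure D3:**
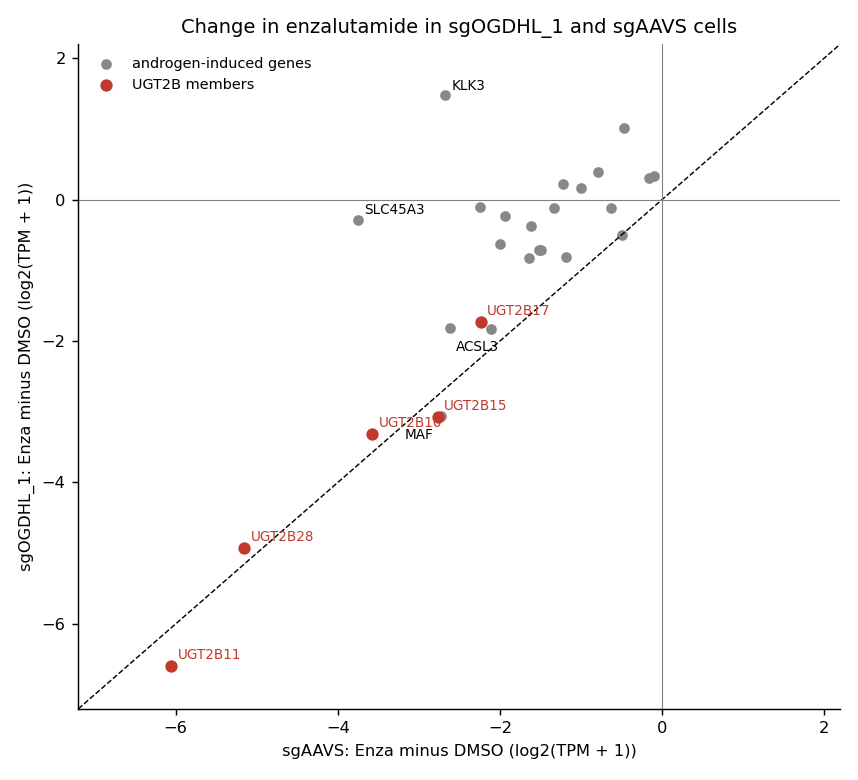
Change with enzalutamide (log2(TPM + 1), enzalutamide minus DMSO) in sgOGDHL_1 cells (vertical axis) and sgAAVS cells (horizontal axis) for 5 UGT2B members (red) and 22 androgen-induced genes (grey); the dashed line marks equal change. The members lie along the line between -1.74 and -6.59 in sgOGDHL_1 cells, while KLK3 lies at 1.47 there against -2.68 in sgAAVS cells, and MAF lies with the members.

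Enzalutamide with sgOGDHL_2 against enzalutamide with sgAAVS gave 1 called member, where 0.678% of genes were called higher. UGT2B10 had 0.863, 0.766 and 0.976 TPM in sgOGDHL_2_Enza and 0.321, 0.308 and 0.237 TPM in sgAAVS_Enza, all below 1 TPM and with no overlap, and rose by 0.53 (SE 0.12, limma adjusted p = 0.027). UGT2B17 had 4.66, 4.08 and 4.53 TPM in sgOGDHL_2_Enza and 3.42, 2.44 and 2.69 TPM in sgAAVS_Enza, a change of 0.50 that missed the threshold (limma adjusted p = 0.14). UGT2B15, UGT2B28 and UGT2B11 changed by 0.36, 0.23 and 0.19 (limma adjusted p of 0.36, 0.62 and 0.78). The family sum was 15.7 ± 1.09 TPM in sgOGDHL_2_Enza and 11.1 ± 1.95 TPM in sgAAVS_Enza, with no overlap. The UGT2B10 call was lost when any of the 6 libraries compared was left out and with a pseudocount of 5, while all 5 members were called higher with median-of-ratios scaling, quantile normalization or mitochondrial genes removed, where 10.8%, 9.35% and 8.97% of genes were.

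Set directly against each other in enzalutamide, the 2 OGDHL guides differed. UGT2B15 had 7.85, 6.69 and 7.80 TPM in sgOGDHL_2_Enza and 3.24, 3.03 and 3.16 TPM in sgOGDHL_1_Enza, a change of 1.03 (SE 0.14, limma adjusted p = 8.7e-05). UGT2B11 was higher by 0.95 (limma adjusted p = 3.6e-04), UGT2B10 by 0.66 (limma adjusted p = 8.3e-04) and UGT2B17 by 0.51 (limma adjusted p = 0.03), so that 4 of 5 members were called higher where 6.3% of genes were. UGT2B28 changed by 0.34 (limma adjusted p = 0.11). The family sum was 2.21-fold higher with sgOGDHL_2. The call of UGT2B17 was lost when any of the 6 libraries compared was left out, and with a pseudocount of 5 the call of UGT2B15 alone remained.

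In vehicle, libraries labelled sgOGDHL_2 held more UGT2B than sgAAVS libraries, and the difference was uneven along the cluster. UGT2B28 had 291, 277 and 238 TPM in DMSO libraries labelled sgOGDHL_2 and 42.9, 45.1 and 45.2 TPM in sgAAVS_DMSO, a change of 2.57 (SE 0.13, limma adjusted p = 1.0e-11) and 6.05-fold in TPM. UGT2B11 had 661, 597 and 551 TPM in libraries labelled sgOGDHL_2 and 199, 202 and 199.9 TPM in sgAAVS_DMSO, a change of 1.58 (SE 0.15, limma adjusted p = 8.7e-08). These 2 of 5 members were called higher where 41% of genes were. UGT2B15 had 47.5, 42.2 and 39.5 TPM in libraries labelled sgOGDHL_2 and 42.0, 43.7 and 45.3 TPM in sgAAVS_DMSO, with overlapping libraries and a change of -0.02 (SE 0.14, limma adjusted p = 0.9). UGT2B17 changed by -0.13 (limma adjusted p = 0.48) and UGT2B10 by -9.0e-05 (SE 0.12, limma adjusted p = 1.00). With median-of-ratios scaling and quantile normalization these 3 genes were called lower, as 36% and 41.2% of all genes were.

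UGT2B7 was 10.4-fold higher in DMSO libraries labelled sgOGDHL_2, at 0.970, 0.892 and 0.873 TPM against 0.101, 0.0805 and 0.0814 TPM in sgAAVS_DMSO, and UGT2B4 stood at 0.109, 0.0911 and 0.0934 TPM against 0.186, 0.212 and 0.172 TPM. Both differences passed with no filter (UGT2B7 0.81, limma adjusted p = 1.4e-14, and UGT2B4 -0.12, limma adjusted p = 8.9e-06). With no filter 43.5% of 26900 genes were called higher and 12.2% lower. All 5 UGT2B pseudogenes had higher TPM there and the 3 that were tested were called higher, of which UGT2B25P and UGT2B27P passed the filter only through these libraries, UGT2B27P at 11.0 ± 1.61 TPM against 0.894 ± 0.121 TPM, UGT2B24P at 10.6 ± 1.49 TPM against 1.41 ± 0.0928 TPM and UGT2B25P at 3.27 ± 0.215 TPM against 0.188 ± 0.0251 TPM; UGT2B26P and UGT2B29P were under 1 TPM. Of the 12 UGT2B genes and pseudogenes of the cluster, those whose start lies 452 to 840 kb from the start of UGT2B17 were 3.01-fold to 17.4-fold higher. UGT2B17, UGT2B15 and UGT2B10, within 247 kb, had ratios of 0.914, 0.986 and 1.00, while UGT2B29P, at -50.9 kb, was 4.26-fold higher. UGT2B4, at 957 kb, had a ratio of 0.516. This grouping was made after the values were seen. Pseudogenes share stretches with members, with 22.4% of those of UGT2B11 in UGT2B25P. The part of shared reads in the pseudogene levels was not tested. These libraries had 1407 to 1630 rows listed at 0, against 3042 or more in every other library, and the 5 hepatocyte markers measured summed to 3.30 to 3.90 TPM in them against 0.554 to 0.588 TPM in sgAAVS_DMSO; the part of either in the result was not tested.

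**Figure D4:**
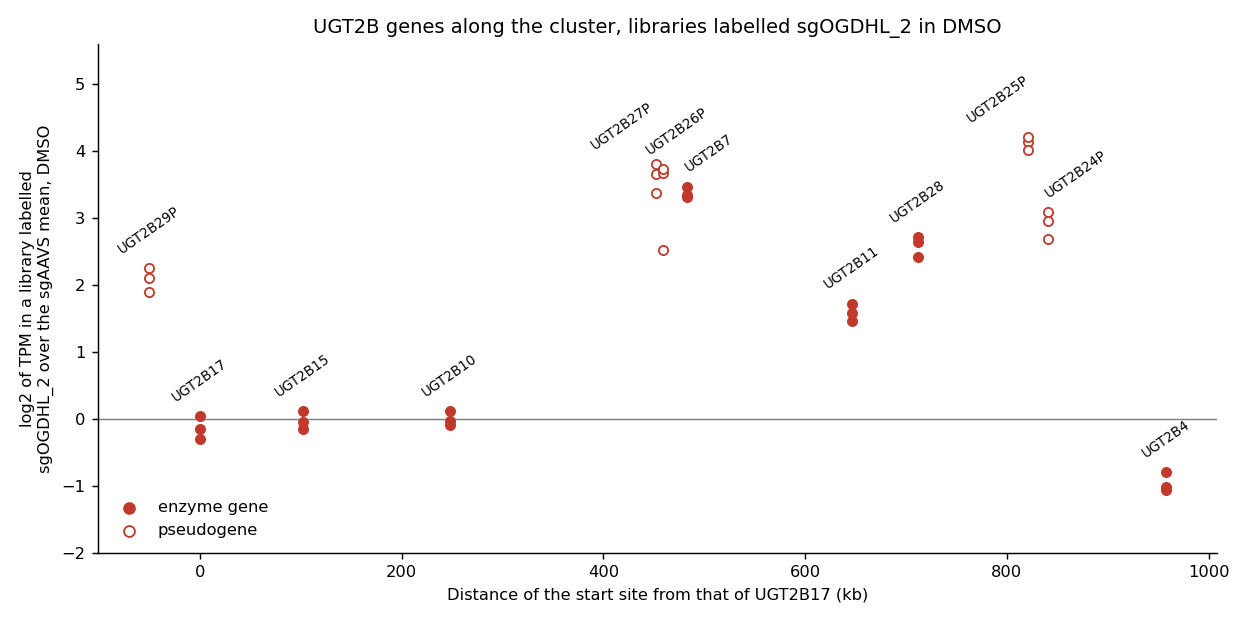
log2 ratio of TPM in each DMSO library labelled sgOGDHL_2 to the mean of the 3 sgAAVS_DMSO libraries, by distance of the gene's start from that of UGT2B17 (kb); filled points are enzyme genes, open points pseudogenes, 3 libraries each. UGT2B17, UGT2B15 and UGT2B10 lie near 0, UGT2B7, UGT2B11 and UGT2B28 (3.01-fold to 10.4-fold by means) above it, and UGT2B4 below it. Pseudogenes share stretches with members, so their points depend on how reads were split.

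With sgOGDHL_1 in vehicle, 4 of 5 members were called lower than with sgAAVS, where 57.5% of all tested genes were called lower, so the members did as most genes did. UGT2B17 had 9.34, 10.7 and 15.9 TPM in sgOGDHL_1_DMSO and 16.6, 17.1 and 17.3 TPM in sgAAVS_DMSO, a change of -0.51 (limma adjusted p = 0.018). UGT2B10, UGT2B15 and UGT2B28 changed by -0.38, -0.35 and -0.33 (limma adjusted p of 0.018, 0.045 and 0.041), and UGT2B11 by -0.23 (limma adjusted p = 0.19), while the median of all tested genes was -0.32. In UGT2B11, UGT2B15 and UGT2B28 the third sgOGDHL_1_DMSO library, which had the lowest mitochondrial share of its group, was above or within the sgAAVS_DMSO libraries. With mitochondrial genes removed, median-of-ratios scaling or quantile normalization the median of all genes was 0.02, 0.01 and 0.01, and UGT2B15 was called higher, where 21.1%, 24% and 22.6% of genes were, as were UGT2B11 and UGT2B28 with both scalings. Leaving out 1 library gave 0 to 5 members called lower, where 0.0597% to 83.2% of all genes were.

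Whether a guide altered the effect of the drug was tested as an interaction. For sgOGDHL_1 none of the 5 members was called by limma, where 6.95% of genes were; 2 had an unadjusted p under 0.05, UGT2B11 (-0.54, limma adjusted p = 0.11) and UGT2B17 (0.50, limma adjusted p = 0.12). With median-of-ratios scaling UGT2B11, UGT2B15 and UGT2B28 were called, with interactions of -0.97, -0.71 and -0.23 (limma adjusted p of 2.2e-05, 7.6e-07 and 0.014), where 17.7% of all genes were called negative. Without sgOGDHL_1_DMSO replicate 3, 3 members were called positive, where 63.0% of all genes were. KLK3 had an interaction of 4.15 (limma adjusted p = 1.6e-08) and SLC45A3 of 3.47 (limma adjusted p = 8.6e-07), and of the 22 tested androgen-induced genes 17 were called positive and 0 negative, where 5.67% and 1.27% of all tested genes were. For sgOGDHL_2, which rests on the vehicle libraries labelled with it, UGT2B28 (-2.33, limma adjusted p = 1.2e-08) and UGT2B11 (-1.40, limma adjusted p = 5.3e-05) had a larger fall, and UGT2B17 (0.63, limma adjusted p = 0.021) and UGT2B10 (0.53, limma adjusted p = 0.014) a smaller one. UGT2B15 had 0.38 (limma adjusted p = 0.14), and 43.6% of all tested genes were called. Of the 22 androgen-induced genes, 11 were called positive and 7 negative for sgOGDHL_2, where 8.71% and 34.9% of all tested genes were. The sgOGDHL_2 call of UGT2B17 was lost without sgOGDHL_2_DMSO replicate 3 or sgAAVS_Enza replicate 2.

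Genes whose pattern was most like the family sum were ranked by Pearson's r on log2(TPM + 1) over the 18 libraries, among 7709 tested genes with at least 5 TPM in their highest group. The first 5 were MAF (0.985), RGS2 (0.984), PCDH20 (0.982), NDRG1 (0.982) and ADRB1 (0.981), over libraries that share the gap between the drug and vehicle groups. Within the 9 enzalutamide libraries r was 0.984 for MAF and 0.913 for NDRG1, but -0.73 for RGS2, -0.49 for PCDH20 and -0.66 for ADRB1. Within the 9 DMSO libraries r was 0.991 for MAF, 0.939 for NDRG1, 0.995 for RGS2, 0.998 for PCDH20 and 0.938 for ADRB1. MAF, a basic leucine zipper transcription factor, had 0.954, 0.876 and 0.903 TPM in sgOGDHL_1_Enza, 2.59, 2.38 and 2.42 TPM in sgOGDHL_2_Enza and 2.16, 1.58 and 1.80 TPM in sgAAVS_Enza, against 13.2, 14.7 and 17.3, 71.5, 73.4 and 71.1 and 18.2, 17.7 and 17.2 TPM in the DMSO groups in the same order of guides. The order of the groups was the same as for the family sum in enzalutamide and in vehicle. Without the DMSO libraries labelled sgOGDHL_2, r for MAF was 0.998 over 15 libraries. The genes were picked from these same libraries, so r in a part of them is no separate support. The libraries of a group had the same order in MAF and the sum in each enzalutamide group and in sgOGDHL_1_DMSO. They did not in sgAAVS_DMSO or in DMSO libraries labelled sgOGDHL_2. In sgAAVS_Enza, sgOGDHL_2_Enza and sgOGDHL_1_DMSO the shared order was the reverse of that of the mitochondrial share, which moves the TPM of other genes. The part of that share was not tested, and the order is no separate support for MAF. NDRG1, a gene of stress response and differentiation, fell by 2.11 in sgAAVS cells with enzalutamide (limma adjusted p = 1.1e-07), RGS2, which dampens G-protein signals, by 3.41 (limma adjusted p = 1.2e-12), the protocadherin PCDH20 by 2.57 (limma adjusted p = 5.9e-11) and the adrenergic receptor ADRB1 by 2.91 (limma adjusted p = 7.0e-12).

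**Figure D5:**
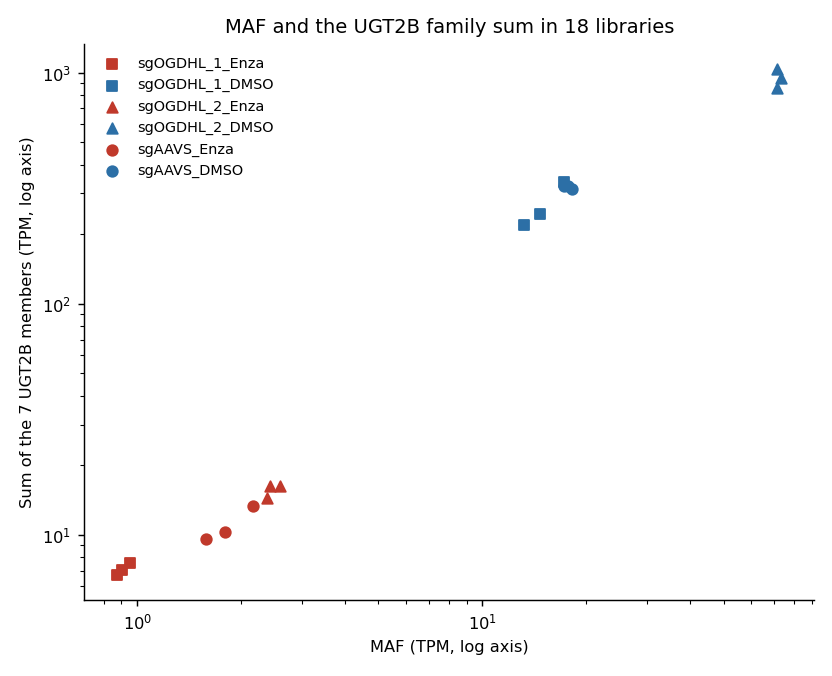
Sum of the 7 UGT2B members against MAF (TPM, both log axes) in the 18 libraries; squares are sgOGDHL_1, triangles sgOGDHL_2 and circles sgAAVS, red is enzalutamide and blue DMSO. The enzalutamide libraries lie at 6.72 to 16.3 TPM of UGT2B and the DMSO libraries at 219.5 to 1034 TPM. Within each treatment the guide groups with more MAF by mean hold more UGT2B. MAF was picked as the gene most like the sum in these same libraries.

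Genes of glucuronidation outside the family were read in sgAAVS cells with enzalutamide against vehicle, where 9.28% of all tested genes rose and 11.6% fell. Of 14 other UGT genes in the table, 1 could be tested, UGT8, which makes galactosylceramide and does not conjugate androgens, and the others, UGT1A, UGT2A and UGT3A genes, stayed at 0.268 TPM or less in every library. UGT8 fell by 0.86 (limma adjusted p = 1.4e-07), with 0.751 ± 0.123 TPM in sgAAVS_Enza and 2.17 ± 0.0847 TPM in sgAAVS_DMSO. Of 5 tested genes that supply UDP-glucuronic acid, 1 rose and 1 fell, with a median of -0.03 against -0.05 over all tested genes. UGDH, which makes UDP-glucuronic acid, had 11.5 ± 1.73 TPM in sgAAVS_Enza and 15.1 ± 0.292 TPM in sgAAVS_DMSO (-0.37, limma adjusted p = 0.047) and the phosphoglucomutase PGM1 rose by 0.45 (limma adjusted p = 0.0057). The UGDH call held only where the library left out was sgOGDHL_1_DMSO replicate 1 or 3 or sgAAVS_Enza replicate 1.

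Of 3 tested genes that cleave or export glucuronides, 0 rose and 2 fell, with a median of -0.56. The exporter ABCC4 had 0.580, 0.397 and 0.482 TPM in sgAAVS_Enza and 3.52, 3.64 and 3.48 TPM in sgAAVS_DMSO, a change of -1.61 (limma adjusted p = 3.4e-10), and ABCC1 fell by 0.56 (limma adjusted p = 0.008). Of 6 tested genes that make or convert androgens, 0 rose and 3 fell, with a median of -0.42, among them HSD17B11 (-0.62, limma adjusted p = 8.1e-07) and the steroid reductases SRD5A3 (-0.51, limma adjusted p = 0.0078) and SRD5A1 (-0.33, limma adjusted p = 0.031), whose call was lost without any 1 of the sgAAVS_DMSO libraries or sgAAVS_Enza replicate 2 or 3. Of 3 tested steroid sulfation genes none was called by limma and 0 had an unadjusted p under 0.05. The 3 tested UGT2B pseudogenes, each at 1 TPM or more in DMSO libraries only and so tested through the vehicle groups, all fell, with a median of -0.90.

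Genes known to regulate UGT2B were also read in sgAAVS cells. Of 6 tested, none was called by limma with enzalutamide and 1 had an unadjusted p under 0.05, with a median of 0.09. The pioneer factor FOXA1 had 252 ± 37.3 TPM in sgAAVS_Enza and 272 ± 9.01 TPM in sgAAVS_DMSO (-0.12, limma adjusted p = 0.55). The gut factor CDX2 stayed at 0.164 TPM or less in every library. Of 7 tested neighbours on chromosome 4 outside the family, none was called by limma and 0 had an unadjusted p under 0.05, with a median of -0.04.

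Of the 22 tested androgen-induced genes, 0 rose and 20 fell in sgAAVS cells with enzalutamide, with a median of -1.51. KLK3 had 67.7, 53.5 and 54.5 TPM in sgAAVS_Enza and 373, 379 and 385 TPM in sgAAVS_DMSO (-2.68, limma adjusted p = 4.4e-09), SLC45A3 changed by -3.76, MAF by -2.72 and ACSL3 by -2.62. Of 6 tested genes that androgen represses, 4 rose and 1 fell, with a median of 1.62. CAMK2N1, an inhibitor of CaM kinase, had 48.1, 33.1 and 36.7 TPM in sgAAVS_Enza and 3.85, 4.23 and 3.77 TPM in sgAAVS_DMSO (3.01, limma adjusted p = 2.7e-12), the opioid receptor OPRK1 rose by 2.15 and the matricellular CCN3 by 1.86, while the cholinesterase BCHE fell by 1.44 (limma adjusted p = 3.2e-08). UGT2B15 and UGT2B17, known as androgen-repressed genes in other prostate cancer lines, fell in this comparison.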

How the data were processed

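RNA of 16D cells was sequenced as 18 stranded mRNA libraries (KAPA HyperPrep, paired ends on a NovaSeq X Plus), demultiplexed with Bcl2fastq 2.19.1.403, per the labels' protocols. STAR and GRCh38 are named in the submitters' processing notes, while the tool that counted reads and its gene models are not given in any source used. The authors deposited 1 table of TPM, 37347 rows by 18 samples. TPM fixes the sum of a library, so abundant transcripts move all others, and depth and its counting error are unknown.

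Rows without a gene name (10345) and 69 rows of 3 symbols with 5 or more rows were left out, and rows of a symbol with 2 to 4 of them were added up, leaving 26900 symbols. limma 3.58.1 (R 4.3.3) was fitted to log2(TPM + 1) of all libraries with 1 mean for each of 6 groups, 12 residual degrees of freedom and a trended prior, for 13416 genes and 10 contrasts, with Benjamini-Hochberg adjustment. The members, gene lists and tests were chosen with earlier results of these data known. Named were the members, OGDHL, KLK3, up to 4 called genes of each list by size of change in sgAAVS cells with enzalutamide, and the 5 genes most like the family sum; FOXA1, CDX2, UGT2B26P and UGT2B29P were added after their values were seen. A few genes of the lists are not reported here and were left out of the lists' counts. Lists covered UGT2B pseudogenes, other UGT enzymes, supply of UDP-glucuronic acid, glucuronide cleavage and export, androgen synthesis, steroid sulfation, UGT2B regulators, neighbours on chromosome 4, androgen-induced genes, androgen-repressed genes and markers of luminal, basal, liver, leukocyte, fibroblast and endothelial cells. Replicate numbers paired the libraries of sgOGDHL_1_Enza and sgAAVS_Enza: deviations from group means correlated at 0.25, 0.11 and 0.20 for same-numbered libraries, each best with its own number.

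Tested on simulated data (5 simulations of enzalutamide in sgAAVS, 200 of 13416 genes changed), the fit recovered 45.6%, 92%, 99.6% and 100% of changes of 0.5, 1, 2 and 4 (log2), with 6.51% false calls. Alternatives were pseudocounts of 0.1 and 5, no filter, a 5 TPM filter, scaling by median of ratios, quantile normalization, mitochondrial genes removed, own libraries of a comparison with and without a replicate block, no sgOGDHL_2_DMSO group and each library left out; sgOGDHL_1_DMSO replicate 3 as the only library of its group was chosen after seeing the data. Sequences came from GENCODE release 29 and RefSeq promoters (GRCh38.p14, 4 of 7 members matched), compared with Biopython 1.88. Python 3.11.15, numpy 2.4.6, pandas 2.3.3 and matplotlib 3.10.9 were used.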

Additional observations from a re-analysis of the deposited data

Results flagged for a closer look

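4 members answered enzalutamide differently with sgOGDHL_2 than with sgAAVS, by limma's test of the difference between the 2 drug effects, in which 43.6% of all tested genes were called. The difference was -2.33 for UGT2B28, whose change with the drug was -7.49 with sgOGDHL_2 and -5.16 with sgAAVS, and -1.40 for UGT2B11, with -7.45 and -6.05. It was 0.63 for UGT2B17, with -1.61 and -2.24, and 0.53 for UGT2B10, with -3.04 and -3.58. All 4 rest on the DMSO libraries labelled sgOGDHL_2, in which OGDHL RNA was not lower than in sgAAVS_DMSO. In the test of the sgOGDHL_1 difference none of these passed.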

How the results depend on the processing

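The 5 tested members were called lower with enzalutamide in all 3 guides under every alternative that gave a value (5 to 7 members, 7 with no filter), and for the 2 members called lower with sgOGDHL_1 in enzalutamide and the 2 called higher in DMSO libraries labelled sgOGDHL_2 this held with each library left out. Over all single genes and comparisons, 2368 of 2548 values stayed on their side of the threshold with no called value changing sign; 21 of these, called under neither setting, changed sign.

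Counts of called members moved as follows, with shares of all tested genes called. For sgOGDHL_1 against sgAAVS in DMSO (4, all lower), there were 3 higher with either scaling, 1 higher with mitochondrial genes removed, and 0 with its own libraries, with these and the replicate block, or with sgOGDHL_1_DMSO replicate 3 alone (1, 0 and 0 at an unadjusted p under 0.05), where 0%, 10.1% and 0.0224% of genes were called. With 1 library left out there were 0 to 5 lower, where 0.0597% to 83.9% of genes were called. The 0 came without sgAAVS_DMSO replicate 1 or 3 or sgOGDHL_1_DMSO replicate 1 or 2 (2 to 4 unadjusted), 1 without sgAAVS_DMSO replicate 2, 2 without sgAAVS_Enza replicate 3, any sgOGDHL_1_Enza replicate or sgOGDHL_2_Enza replicate 1 or 3, and 5 without sgOGDHL_1_DMSO replicate 3. For sgOGDHL_2 against sgAAVS in DMSO (2 higher), there were 4 with no filter or with mitochondrial genes removed (3 higher and 1 lower), and 5 with median-of-ratios scaling or quantile normalization (2 higher and 3 lower); with 1 library left out there were 2. For sgOGDHL_1 against sgAAVS in enzalutamide (2), a pseudocount of 5 gave 0 (2 unadjusted) and leaving out a library gave 2. The replicate block, which rests on weak correlations here, gave 3. For sgOGDHL_2 against sgAAVS in enzalutamide (1), there were 0 with a pseudocount of 5 (1 unadjusted), 5 with both scalings and with mitochondrial genes removed (where 18%, 17.1% and 14% of genes were called), 3 with its own libraries (3.07%), 4 with the replicate block (17.4%), and 0 to 3 with a library left out (3 without sgOGDHL_1_DMSO replicate 3 and 2 without its replicate 1). Between the OGDHL guides in enzalutamide (4), a pseudocount of 5 gave 1, and leaving out a library gave 3 to 5. For the sgOGDHL_1 interaction (0), there was 1 negative with a pseudocount of 0.1, 1 positive (UGT2B4) with no filter, 3 negative with either scaling (34% and 31.8% of genes called), 4 negative with mitochondrial genes removed (26.8%), 2 negative with sgOGDHL_1_DMSO replicate 3 alone (4.77%), and 0 to 3 with a library left out, the 3 all positive and without that library, where 65.5% of genes were called. For the sgOGDHL_2 interaction (4) leaving out a library gave 3 to 5.

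The log2 ratio of the family sum moved to -5.55 with mitochondrial genes removed and to -5.56 with sgOGDHL_1_DMSO replicate 3 alone for enzalutamide in sgOGDHL_1 (-5.23), to -5.55 with median-of-ratios scaling and -5.75 with mitochondrial genes removed for enzalutamide in sgOGDHL_2 (-5.91), and to 1.37 with median-of-ratios scaling for sgOGDHL_2 in DMSO (1.56). For sgOGDHL_1 in DMSO (-0.26) it reversed to 0.20 with median-of-ratios scaling, 0.21 with mitochondrial genes removed and 0.070 with that single library. With 1 library left out the ratio ran from -5.00 to -4.76, -5.35 to -5.03 and -5.98 to -5.85 for enzalutamide in sgAAVS, sgOGDHL_1 and sgOGDHL_2, -0.46 to -0.14 and 1.5 to 1.63 for sgOGDHL_1 and sgOGDHL_2 in DMSO, and -0.73 to -0.49 and 0.41 to 0.66 in enzalutamide.

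Single members whose called value reversed did so for sgOGDHL_1 in DMSO: with median-of-ratios scaling, UGT2B10 (0.069), UGT2B11 (0.26), UGT2B15 (0.12) and UGT2B28 (0.14); with quantile normalization, UGT2B10 (0.082), UGT2B11 (0.25), UGT2B15 (0.17) and UGT2B28 (0.19); with mitochondrial genes removed, UGT2B10 (0.077), UGT2B15 (0.13) and UGT2B28 (0.15); with that single library, UGT2B15 (0.027) and UGT2B28 (0.032). UGT2B11, not called there, had 0.27 with mitochondrial genes removed and 0.11 with that library. In the sgOGDHL_1 interaction UGT2B28 became -0.23, -0.25 and -0.31 under these first 3 settings and UGT2B10 -0.27 with mitochondrial genes removed. Uncalled, UGT2B10 had -0.17 with either scaling, and UGT2B10 and UGT2B28 had -0.05 and -0.06 with a pseudocount of 0.1 and -0.08 and -0.14 with that library. Both scalings and the removal of mitochondrial genes remove the shift of all genes in sgOGDHL_1_DMSO; the cause of that shift was not tested. Depth is unknown, and log2 changes of levels under 1 TPM depend on the pseudocount.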
